A study of Mus musculus with 3 samples.

Results

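The circadian clock genes were followed as a set of 10 named genes in naive CD4+ αβ T cells: the activators Clock and Arntl, the repressors Per1, Per2, Per3, Cry1, Cry2, Nr1d1 and Nr1d2, and the output gene Dbp. They were chosen by name, and all 10 were found among the 55536 genes of the deposited expression tables by matching gene identifiers to GENCODE M21. The cells came from 1 adult male mouse of 5 months, of the strain B6.SJL-Ptprca Pepcb/BoyJ, a C57BL/6 congenic line that carries the Ptprca (CD45.1) and Pepcb alleles. PolyA RNA was sequenced as 3 technical libraries of 1 biological replicate. There was no second condition, tissue or time point, and the hour at which the cells were collected is not given in the sources used here. Each SD below is over the 3 technical libraries and does not cover variation between mice.

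The mammalian clock is a loop of transcription and translation. CLOCK and ARNTL (also called BMAL1) form a heterodimer that binds E-boxes and activates the Per and Cry genes, whose proteins assemble into a complex that represses the heterodimer. In a second loop, ROR receptors activate Arntl, and the REV-ERB receptors encoded by Nr1d1 and Nr1d2 repress it through the same ROR elements. DBP is an activator that binds D-boxes and is itself a direct output of CLOCK and ARNTL, and NFIL3 (E4BP4) represses through D-boxes. T cells carry this clock, and their transcripts are known to cycle over the day, so a single sampling shows a snapshot of the balance and no rhythm.

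The elements through which these proteins act were looked for by exact letters, on both strands, in RefSeq promoter windows of build GRCm38.p6 that run from 250 bases before each annotated start to 50 bases after it. The 9 members other than Per2 had 13 such windows. The canonical E-box CACGTG was present for 2 of the 9 members, Per1 and Cry1, against 8.09% of the 27025 genes with windows. The E-prime box CACGTT was present for 3 of the 9, Cry1, Cry2 and Nr1d1, against 5.44% of genes. A D-box, TTATGTAA or TTATGCAA, was present for 2 of the 9, Per1 and Per3, against 1.98% of genes. The core of the ROR element, TAGGTCA or TGGGTCA, was present for 1 of the 9, Arntl, against 7.35% of genes, and the cAMP response element TGACGTCA for 0 of the 9, against 2.03% of genes. No match of 1 motif overlapped a match of another.

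The 250 bases before the start are shown for 4 genes that differ in these elements and in their levels: Per1 and Per3, the most and least abundant of the PER genes, and Cry1 and Cry2. Capitals mark the motif matches, and each sequence is written 5′ to 3′ on the strand of the gene. The Per1 window, at chr11:69098699-69098948 on the plus strand, holds an E-box that begins 166 bases before the start and a D-box that begins 24 bases before it.
Per1: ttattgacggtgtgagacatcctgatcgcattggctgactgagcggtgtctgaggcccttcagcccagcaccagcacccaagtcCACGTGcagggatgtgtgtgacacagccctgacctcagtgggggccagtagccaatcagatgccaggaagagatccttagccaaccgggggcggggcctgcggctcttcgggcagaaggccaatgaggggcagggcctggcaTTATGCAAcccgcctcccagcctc
The Per3 window, at chr4:151044666-151044915 on the minus strand, holds 2 copies of the D-box, which begin 205 and 158 bases before the start.
Per3: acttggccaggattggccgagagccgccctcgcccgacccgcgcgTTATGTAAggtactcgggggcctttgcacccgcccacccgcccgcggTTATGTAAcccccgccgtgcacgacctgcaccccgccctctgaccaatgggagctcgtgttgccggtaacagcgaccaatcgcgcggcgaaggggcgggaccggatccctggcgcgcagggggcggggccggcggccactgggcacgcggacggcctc
The Cry1 window, at chr10:85185055-85185304 on the minus strand, holds an E-prime box on the reverse strand, 79 bases before the start, and an E-box 60 bases before it.
Cry1: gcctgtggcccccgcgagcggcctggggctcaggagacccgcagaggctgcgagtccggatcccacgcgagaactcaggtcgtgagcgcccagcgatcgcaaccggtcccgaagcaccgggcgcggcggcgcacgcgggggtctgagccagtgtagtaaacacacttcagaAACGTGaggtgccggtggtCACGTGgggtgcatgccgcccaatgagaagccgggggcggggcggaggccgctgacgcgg
The Cry2 window, at chr2:92434070-92434319 on the minus strand, holds an E-prime box on the reverse strand, 166 bases before the start.
Cry2: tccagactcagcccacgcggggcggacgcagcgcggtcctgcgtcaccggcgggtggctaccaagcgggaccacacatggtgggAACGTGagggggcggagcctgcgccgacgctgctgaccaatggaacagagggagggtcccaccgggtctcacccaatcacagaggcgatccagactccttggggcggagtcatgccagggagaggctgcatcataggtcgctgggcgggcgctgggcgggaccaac
The ROR element core of Arntl lay 30 bases after the second of its annotated starts, and the stretch around it is chr7:113207531-113207557 on the plus strand.
Arntl: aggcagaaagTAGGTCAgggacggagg

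The libraries held 14837442, 18207118 and 17505621 expected counts (estimated reads), of which the clock genes took 10064, 12501 and 11519. Levels are in TPM, a share of all transcripts that is corrected for transcript length and can be compared between genes. All 6 markers of CD4 T cells were present, led by Ccr7, Trac and Tcf7 with means of 2632, 2475 and 1541 TPM, and the lowest was Cd4 at 443.8 TPM. Of 15 markers of CD8 T, B, myeloid, natural killer, erythroid and stromal or epithelial cells, 5 reached 1 TPM in every library. The highest of these was Cd8b1 at 17.0 ± 0.235 TPM, and the others were Epcam at 3.30, Cd79a at 2.06, Itgam at 1.63 and Hbb-bs at 1.18 TPM. Among the rest, Cd8a, Ms4a1, Csf1r, Lyz2, Klrb1c, Ncr1, Hba-a1, Dcn and Col1a1 averaged at most 0.287 TPM. The summed level of the other cells' markers ran from 0.120 to 0.290 TPM for natural killer cells, 1.20 to 1.55 TPM for erythroid cells, 1.63 to 1.82 TPM for myeloid cells, 1.66 to 2.80 TPM for B cells, 3.17 to 4.41 TPM for stroma and epithelium and 16.9 to 17.4 TPM for CD8 T cells. The part of these cells in the clock genes' levels was not tested. In bulk RNA, fewer cells that express a gene and less of its RNA per cell cannot be told apart.

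The naive T cells held transcripts of both limbs of the clock, and 9 of the 10 genes reached 1 TPM in every library. Among all genes 21.4% did so, and among protein-coding genes 44.6%. The exception was Per3, which had 1.63, 1.13 and 0.780 TPM in libraries 1, 2 and 3. The median of the members' mean levels was 21.6 TPM, against 31.4 TPM over the 9823 protein-coding genes that reached 1 TPM in every library. That median includes Per3, and among the 9 members that reached 1 TPM in every library the middle level was that of Arntl, 28.2 TPM. The clock genes together made up 0.0348%, 0.0334% and 0.0337% of all TPM in the 3 libraries.

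Arntl, which encodes BMAL1, the obligate partner of CLOCK, had 28.2, 25.9 and 30.4 TPM in libraries 1, 2 and 3 (mean 28.2 ± 2.22, SD, n = 3 libraries). Clock, the histone acetyltransferase partner, had 15.1, 14.7 and 14.9 TPM (14.9 ± 0.200). Arntl was thus the higher of the activators in 3 of 3 libraries, with no overlap of their ranges. Arntl lies at chr7:113207465-113314126 on the plus strand and Clock at chr5:76209868-76304792 on the minus strand (mm10, GENCODE M21). Among detected protein-coding genes they stood at the 46.9th and 31.0th percentiles of level. The paralogs that can stand in for them, Arntl2 and Npas2, were near the floor: Arntl2 had 0.320 ± 0.155 TPM from 8.18 expected counts in all and Npas2 0.430 ± 0.254 TPM from 44 counts. Neither reached 1 TPM in any library.

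The CRY genes encode the strongest direct repressors of the CLOCK and ARNTL heterodimer. Cry1 had 96.3, 80.8 and 97.7 TPM in libraries 1, 2 and 3 (91.6 ± 9.41), the 79.1st percentile of detected protein-coding genes. Cry2 had 35.3, 29.5 and 31.8 TPM (32.2 ± 2.92). Every library thus held more Cry1 than Cry2, and after scaling for length the pooled counts gave a ratio of 2.85 (95% Clopper-Pearson interval 2.73 to 2.97). Intervals of this kind cover counting error only.

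The PER genes, whose products scaffold the repressor complex and bring in casein kinase 1, spanned a wide range. Per1 had 45.9, 65.0 and 36.1 TPM in libraries 1, 2 and 3 (49.0 ± 14.7). Per2 had 5.36, 6.87 and 8.07 TPM (6.77 ± 1.36). The order Per1, Per2, Per3 held in every library, and no 2 of the 3 ranges overlapped. The pooled ratio of Per1 to Per2 was 7.26 (6.77 to 7.80), and that of Per2 to Per3 was 5.92 (4.86 to 7.28). On protein-coding transcripts alone the log2 ratio of Per1 to Per2 was 3.13, against 2.82 over all transcripts. That of Per2 to Per3 was 5.00, against 2.46, with Per3 near the floor at a mean of 0.08 TPM on coding transcripts. Per3 rested on 111 expected counts over the 3 libraries, Per2 on 911 and Per1 on 5628.

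The REV-ERB receptors differed widely in level. Over all transcripts Nr1d2, which encodes REV-ERBβ, was the most abundant member, with 103.1, 95.1 and 97.9 TPM in libraries 1, 2 and 3 (98.7 ± 4.04), the 80.7th percentile of detected protein-coding genes. On protein-coding transcripts alone it had 77.06, 67.79 and 81.46 TPM, below Cry1 with 95.55, 79.32 and 95.59 TPM. Whole-number counts on an older annotation, not corrected for length, were also lower for Nr1d2 (958, 1037 and 1049) than for Cry1 (1361, 1407 and 1487). Nr1d1, which encodes REV-ERBα and is the more strongly cycling paralog in mouse liver, had 3.13, 2.43 and 4.51 TPM (3.36 ± 1.06), the 8.66th percentile. Nr1d1 therefore stood at a pooled ratio of 0.0339 to Nr1d2 (95% interval 0.0299 to 0.0383) and gave 3.28% ± 0.999 of the REV-ERB total. The 263 exonic bases that Nr1d1 shares with Thra, a thyroid hormone receptor gene on the opposite strand, could take reads of either gene, since the strandedness of the libraries is not given in the sources used here. Thra itself stood at 5.78 ± 0.804 TPM.

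Dbp, the D-box activator, had 13.6, 12.3 and 14.8 TPM in libraries 1, 2 and 3 (13.6 ± 1.28), just under Clock in mean over all transcripts. On protein-coding transcripts alone Dbp had 11.17, 9.28 and 11.26 TPM, above Clock with 6.06, 6.09 and 4.65 TPM. Per2 was above Clock on that scale in library 3 only, at 5.44 TPM. Dbp shares 539 exonic bases with Sphk2, a sphingosine kinase gene on the opposite strand at 17.9 ± 2.24 TPM. Part of the reads of Dbp therefore cannot be assigned with certainty. Over all transcripts, the order from highest to lowest mean was Nr1d2, Cry1, Per1, Cry2, Arntl, Clock, Dbp, Per2, Nr1d1 and Per3. The ranges of Nr1d2 and Cry1, of Cry2 and Arntl, and of Clock and Dbp overlapped, and those of the other neighbours in this order did not. Within each library the first of each neighbouring pair was higher in 3 of 3.

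**Figure D1:**
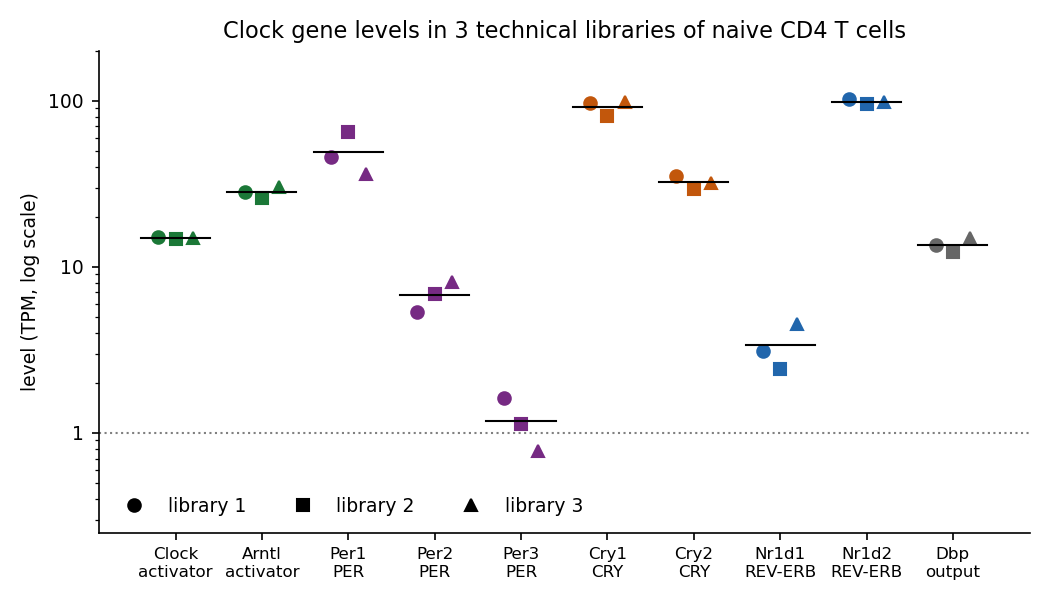
Level of each clock gene in TPM (log scale) in each of the 3 technical libraries, with a horizontal bar at the mean and a dotted line at 1 TPM. Nr1d2 and Cry1 sit near 100 TPM, Nr1d1 between 2.43 and 4.51 TPM, and Per3 falls under the dotted line in library 3.

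Summed over genes, the repressors outweighed the activators. Clock and Arntl together had 43.4, 40.7 and 45.3 TPM in libraries 1, 2 and 3 (43.1 ± 2.34), and the 5 PER and CRY genes had 184.5, 183.3 and 174.4 TPM (181 ± 5.49). The log2 ratio of activators to PER and CRY repressors was -2.09, -2.17 and -1.95 (-2.07 ± 0.12), so that the repressor sum was 4.21 times the activator sum. Against the REV-ERB receptors, which had 106.2, 97.5 and 102.4 TPM (102 ± 4.34), the log2 ratio of the activators was -1.29, -1.26 and -1.18 (-1.24 ± 0.06), a repressor sum 2.37 times as large. Both ratios lay on the repressor side in all 3 libraries, though in whole-number counts made on an older annotation the mean log2 ratio to REV-ERB was -0.56.

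A few genes set these sums. Cry1 gave 50.8% ± 6.11 of the PER and CRY total, Per1 27.0% ± 7.61, Cry2 17.8% ± 1.55, Per2 3.76% ± 0.861 and Per3 0.649% ± 0.220. Without Cry1 the log2 ratio of activators to PER and CRY was -1.04, and without Per1 it was -1.61. Nr1d2 gave 96.7% ± 0.999 of the REV-ERB total, and without it the log2 ratio of activators to REV-ERB was 3.73. The limbs were also set against each other by the mean of log2 TPM over their genes. On that scale the activators stood 0.36 above the PER and CRY genes and 0.19 above the REV-ERB genes. The direction of the balance therefore differed between the summed TPM and the mean of log2 TPM. Cry1, Nr1d2, Per1 and Cry2 had a higher mean TPM than either activator, and Per2, Nr1d1 and Per3 a lower one than either.

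Within the repressor complex the PER genes summed to 52.9, 73.0 and 45.0 TPM in libraries 1, 2 and 3 (57.0 ± 14.5), and the CRY genes to 131.6, 110.3 and 129.5 TPM (124 ± 11.7). Their log2 ratio was -1.31, -0.59 and -1.53 (-1.14 ± 0.49), on the CRY side in every library. In those older counts, which are not corrected for length, it was -0.39, 0.24 and -0.63, so library 2 lay on the PER side there. Its spread came with Per1, which made up 35.5% of the PER and CRY total in library 2, against 24.9% in library 1 and 20.7% in library 3. Arntl and Nr1d1, which peak at opposite times of day in rhythmic mouse tissues, had a log2 ratio of 3.17, 3.42 and 2.75 (3.11 ± 0.34). Arntl was the higher of this pair in 3 of 3 libraries.

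**Figure D2:**
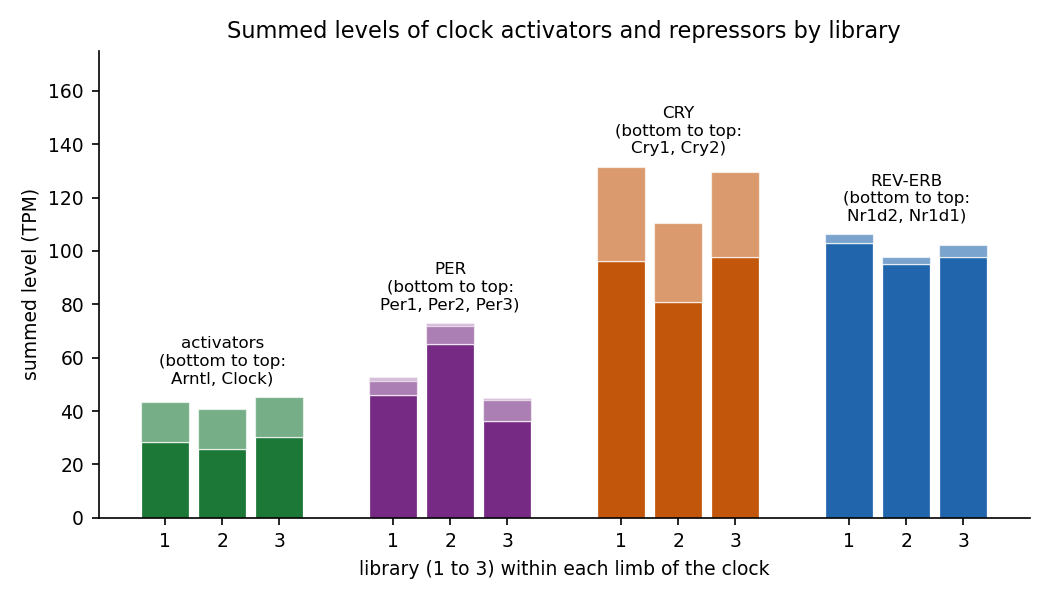
Summed TPM of the activators and of the PER, CRY and REV-ERB repressors in each library, stacked by gene. The activator bars reach 40.7 to 45.3 TPM, Cry1 and Nr1d2 fill most of their bars, and the PER bar of library 2 stands at 73.0 TPM.

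Transcript annotation separated the activators from each other further. Only 37.6% ± 5.58 of the Clock level was assigned to transcripts annotated as protein coding (40.1%, 41.4% and 31.2% in libraries 1, 2 and 3). Transcripts annotated with a retained intron took 60.3% ± 6.96 of it (57.2%, 55.4% and 68.2%). The leading transcripts were Clock-206, a retained-intron form with 37.9% ± 4.10 of the gene's TPM, Clock-201, a coding form of 7478 bases with 26.0% ± 4.21, and Clock-203, another retained-intron form with 22.3% ± 2.98. The retained-intron forms are short, 2473 bases for Clock-206, and in expected counts, which are not corrected for length, they took 32.2% ± 5.80 of the gene. The share of Clock on transcripts that are not protein coding stood at the 88.3rd percentile of 9091 protein-coding genes, whose median was 18.6%.

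For Arntl, 87.0% ± 4.03 of the level was on coding transcripts, led by Arntl-201 with 58.2% ± 3.62. On coding transcripts alone, Arntl had 25.3, 21.4 and 27.1 TPM and Clock 6.06, 6.09 and 4.65 TPM in libraries 1, 2 and 3. The log2 ratio of Arntl to Clock was then 2.12 ± 0.37, against 0.91 ± 0.10 over all transcripts. The activators summed to 30.2 ± 2.37 TPM of coding transcripts, the PER and CRY genes to 170.5 ± 6.58 TPM and the REV-ERB genes to 78.7 ± 7.84 TPM. On that scale the log2 ratio of activators to PER and CRY was -2.50, and to REV-ERB -1.38. A processed pseudogene, Ube2n-ps1, lies in an intron of Clock on the same strand and shares no exonic base with it. It had 118.5 ± 8.61 TPM. Clock, Arntl and Cry2 each overlap a further gene of low level in the annotation, Gm43658 at 0.193 TPM, Gm45355 at 0.120 TPM and D930015M05Rik at 0.420 TPM.

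The other members were mostly or wholly coding, apart from Per3. Cry1-201 carried 97.8% ± 1.65 of Cry1, Nr1d1-201 97.9% ± 3.68 of Nr1d1, Cry2-201 74.9% ± 3.13 of Cry2 and Nr1d2-201 75.2% ± 6.10 of Nr1d2, where retained-intron forms took 23.6% ± 6.14. Per3 had 8.79% ± 11.7 of its level on the coding form and 58.5% ± 27.5 on retained-intron forms, from 111 counts in all. Per3 lies inside Camta1, a transcription activator gene on the same strand at 40.4 ± 7.00 TPM, with no shared exonic base. The part of Camta1 in the Per3 retained-intron estimate was not tested.

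Most of the Per1 level was assigned to 2 starts. Per1-202, which begins at position 69095217 of chromosome 11, took 53.9% ± 8.59 of the gene, and Per1-201, which begins 3731 bases downstream at 69098948, took 32.9% ± 5.28. The other Per1 forms begin further downstream. Of them Per1-206 took 2.47%, 0% and 14.8% of the gene in libraries 1, 2 and 3, and Per1-204 took 0%, 3.43% and 9.38%. The window printed above is the one before the start of Per1-201. Per1-202 had 28.1, 36.5 and 16.1 TPM in libraries 1, 2 and 3 and Per1-201 had 16.7, 23.1 and 9.70 TPM, so both were highest in library 2 and lowest in library 3. Their ratio of 1.68, 1.58 and 1.65 differed little between libraries.

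For Per2 and Dbp the transcript estimates differed between libraries more than the counts of the gene did. Per2-202, a processed transcript of 231 bases, received 0, 4.02 and 4.89 counts in libraries 1, 2 and 3. In TPM this was 0, 1.98 and 2.63, or 0%, 28.9% and 32.6% of Per2. The coding Per2-201 was flat at 5.36, 4.88 and 5.44 TPM, so most of the difference in the gene's summed TPM between libraries lay in Per2-202. In Dbp, the coding form Dbp-203 took 35.0%, 29.7% and 0% while the coding form Dbp-204 took 0%, 0.120% and 21.9%, and Dbp-201 led in each library with 49.1% ± 4.49 on average.

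**Figure D3:**
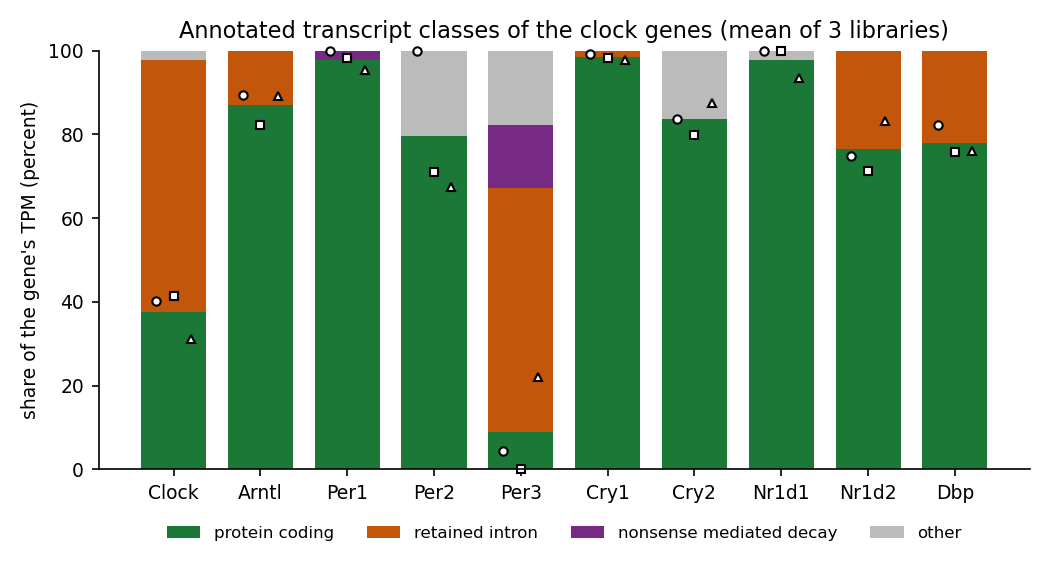
Share of each clock gene's TPM on transcripts of each annotated class (percent, stacked means over 3 libraries), with open symbols for the protein-coding share in library 1 (circle), 2 (square) and 3 (triangle). Clock and Per3 are the members with a mean under 40% on coding transcripts.

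Agreement between the technical libraries was tested by a chi-square test of homogeneity of the counts of each gene, scaled by the trimmed mean of M-values (TMM), with Benjamini-Hochberg adjustment over the 13090 genes that averaged 10 counts or more. Of the 10 clock genes 4 were called at an adjusted p under 0.05, while 40 percent of all genes tested were called. The members' count thus stood at the background. Such a call says that libraries of 1 sample differ by more than counting noise, and nothing about a condition.

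Per1 was the exception in size. Its TMM-scaled counts were 1735, 2587 and 1276 in libraries 1, 2 and 3, a 2.03-fold gap between highest and lowest (chi-square test, adjusted p = 8.73e-107). Among the 9125 genes that averaged 100 counts or more this gap ranked 143rd, where the median gene had 1.15 and the 95th percentile was 1.59. Library 2 was the highest, and without it the gap between libraries 1 and 3 was 1.36-fold (adjusted p = 1.14e-14). In the older counts Per1 had 1152, 1899 and 1000, with library 2 again the highest and a scaled gap of 1.91-fold.

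The other called members moved less. Clock had 658, 722 and 602 scaled counts in libraries 1, 2 and 3, a gap of 1.20-fold (adjusted p = 0.00977). Cry1 had 2751, 2485 and 2729, a gap of 1.11-fold (adjusted p = 0.000921), with library 2 the lowest. Nr1d1 had 81.0, 67.8 and 111.5, a gap of 1.65-fold (adjusted p = 0.00769), with library 3 the highest. Per2 stayed within 1.04-fold on this scale (adjusted p = 0.91). With library 2 left out, Per1 was the single member called, while 14.7% of all genes tested were. Arntl, Cry2, Nr1d2, Dbp and Per3 did not pass, with adjusted p of 0.411, 0.0915, 0.0811, 0.661 and 0.0589.

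**Figure D4:**
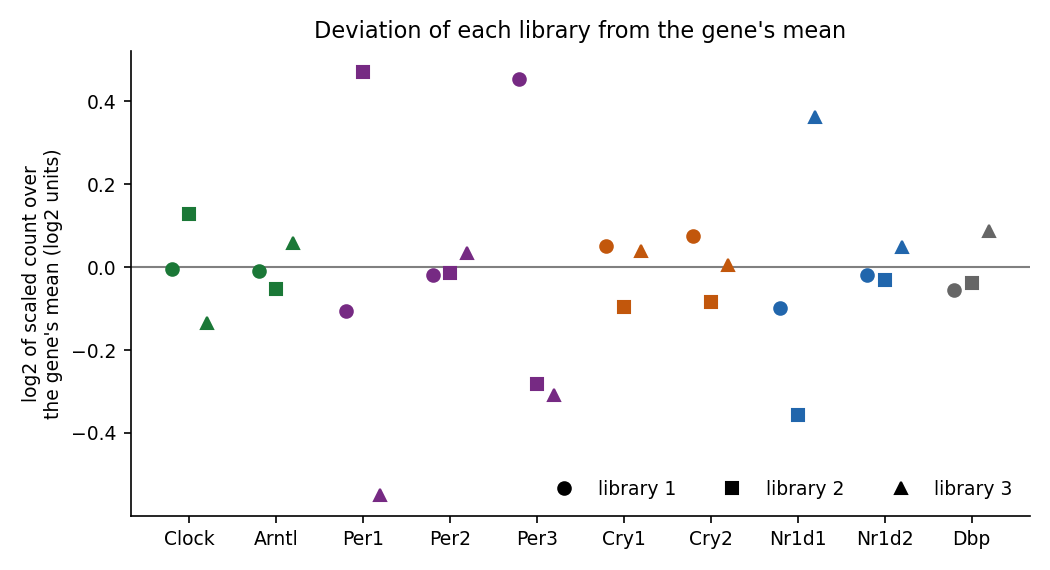
log2 of each library's TMM-scaled count over the mean of the 3 libraries, for each clock gene. Per1 spreads from -0.55 in library 3 to 0.47 in library 2, while Per2, Arntl and Nr1d2 stay within 0.06 of zero.

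Library 2 also differed from the other libraries in measures that are not clock genes. Ribosomal RNA genes, the mitochondrial ones included, took 1.47% of TPM in library 2, against 0.575% in library 1 and 0.635% in library 3. Mitochondrial genes took 3.60%, against 2.94% and 3.12%. The 2 shares overlap, since mitochondrial ribosomal RNA genes are counted in both. Per1 is also an immediate early gene and a glucocorticoid receptor target, so lists of both kinds were set beside it. The 10 immediate early genes summed to 4775, 3500 and 4912 TPM in libraries 1, 2 and 3, and the 6 glucocorticoid-responsive genes to 948.3, 708.2 and 974.2 TPM, so both sums were lowest in the library where Per1 was highest. By scaled counts, 7 of the 9 immediate early genes tested and 4 of the 5 glucocorticoid-responsive genes tested were lowest in library 2, and Fos, Fosb and Fkbp5 were highest there. Of these genes Egr2, Ddit4, Fos and Fkbp5 did not pass the chi-square test (adjusted p = 0.127, 0.656, 0.244 and 0.29). Among the 9125 genes that averaged 100 counts or more, 3348 were highest in library 2. The share of all genes lowest there was not counted, so whether the lists stand out was not tested. The first list was led by Junb, Ier2 and Nr4a1 with means of 2883, 444.4 and 409.7 TPM and ended with Atf3 at 0.500 TPM, and the second was led by Tsc22d3, Fkbp5 and Sgk1 with 784, 43.2 and 33.1 TPM and ended with Zbtb16 at 0.0333 TPM. Fosb had 165, 246 and 139 scaled counts in libraries 1, 2 and 3, and Jun had 8110, 5738 and 8783. The part of the library's RNA makeup in the Per1 gap was not tested.

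Of 38 further genes of the clock pathway, 30 reached 1 TPM in every library, while 44.6% of all protein-coding genes did. The pathway genes are given by role, as levels. Of the ROR receptors, which activate Arntl, 1 of 3 was detected: Rora had 24.9, 22.4 and 28.4 TPM in libraries 1, 2 and 3 (25.2 ± 3.05), while Rorb averaged 0.433 TPM. Set against the repressors of the same element, Rora stood at a pooled ratio of 7.54 to Nr1d1 (6.63 to 8.61) and of 0.256 to Nr1d2 (0.244 to 0.268). Rora was above Nr1d1 and below Nr1d2 in 3 of 3 libraries.

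On the D-box, 2 of 3 further factors were detected. The PAR bZIP activator Tef had 26.0 ± 1.88 TPM, the repressor Nfil3 20.4 ± 2.50 TPM and the activator Hlf 0.630 ± 0.291 TPM. Dbp was below Nfil3 in every library (pooled ratio 0.666, 0.603 to 0.735) and below Tef in every library (0.520, 0.475 to 0.568). It was above Hlf in every library, at a pooled ratio of 21.1 (15.0 to 30.4).

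Of 4 other repressors of CLOCK and ARNTL, 3 were detected. Cipc had 15.0 ± 1.08 TPM and Ciart (CHRONO) 13.3 ± 0.580 TPM, close to the level of Clock over all transcripts. On protein-coding transcripts alone Clock averaged 5.60 TPM, and that level was not computed for Cipc and Ciart. Bhlhe40 (DEC1) had 4.18 ± 0.395 TPM and Bhlhe41 (DEC2) 0.517 ± 0.199 TPM, a pooled ratio of 8.43 (6.55 to 11.0). The 4 genes together summed to 31.4 to 34.2 TPM per library, less than the CRY genes in each.

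The enzymes that set the stability of PER and CRY were nearly all present, with 11 of 12 detected and a median level of 67.3 TPM. Csnk1a1, the casein kinase 1α gene, had 236 ± 17.5 TPM and Csnk1d, the casein kinase that phosphorylates PER proteins, 213.7 ± 20.5 TPM, with 2.29 times the level of Csnk1e (2.21 to 2.36). Csnk2b, the regulatory subunit of casein kinase 2, had 130.6 ± 19.9 TPM. Fbxl21, a ubiquitin ligase subunit that acts on CRY proteins, was the class's lowest at 0.327 ± 0.272 TPM.

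All 9 cofactors were detected, with a median of 37.5 TPM. Ncor1, the corepressor that REV-ERB receptors recruit with Hdac3, was the highest at 419.7 ± 63.6 TPM. Nono, a partner of PER proteins, had 207.4 ± 5.21 TPM and Kdm5a, a histone demethylase that enhances CLOCK and ARNTL activity, 153.9 ± 9.69 TPM, and the lowest was Sin3a, a corepressor scaffold, at 29.5 ± 2.64 TPM. Of 3 outputs, Por, which encodes the reductase of cytochrome P450 enzymes, had 140.8 ± 19.9 TPM and Nampt, the rate-limiting enzyme of NAD salvage, 23.9 ± 1.98 TPM, whereas the mitotic kinase gene Wee1 had 0.677 ± 0.340 TPM. Timeless and Tipin, replication fork proteins that bear clock names, had 27.4 ± 4.42 and 18.6 ± 1.52 TPM. Each of these levels is from the same single sample, and no gene of the pathway was compared between conditions.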

How the data were processed

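PolyA RNA-seq of 1 mouse was deposited as 3 technical libraries, kept apart and numbered by their labels. Expected counts and TPM per gene and transcript, and transcript shares in percent of a gene (IsoPct), were deposited by the authors on mm10 with GENCODE M21, per the file headers and accompanying text. Whole-number counts on the older GENCODE M4 were also deposited by the authors. Aligner, counter, versions and strandedness were not given in the sources used here. Symbols matched 55450 of 55536 genes. Entries naming no gene held 0.247%, 0.200% and 0.325% of expected counts and entered neither library sizes nor tests. From these values, level ratios per library, pooled ratios of length-scaled counts with Clopper-Pearson 95% intervals (scipy 1.17.1), and a chi-square homogeneity test were computed. For the test, expected counts were scaled by TMM (edgeR 4.0.16) and rounded. No test between groups was possible. Detection required 1 TPM in each of the libraries. Pair ratios used TPM + 0.1. Counting intervals cover counting error only.

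The members and lists were chosen with earlier results of these data known. The genes named were the 10 members, both genes of 15 fixed pairs, the 3 highest and the lowest gene of each pathway and marker list, and genes overlapping a member. Fos, Fosb and Jun were named after their values were seen. A few listed genes are not reported here. With 3 technical libraries of 1 sample, no likeness of pattern between genes was computed. Alternatives covered another normalization, DESeq2 1.42.0 size factors, filters, pseudocounts, posterior mean TPM, the older counts, coding transcripts, and leaving out each library. The homogeneity test was tested on simulated data.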

Additional observations from a re-analysis of the deposited data

How the results depend on the processing

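With 1 biological sample the ratios have no test, and depth limits Per3 and Nr1d1 most, at 111 and 261.5 expected counts. The log2 ratio of activators to PER and CRY became -2.24 in the older counts, -2.50 on protein-coding transcripts and 0.36 as a mean of log2 TPM over genes, and that to REV-ERB became -1.40 in counts with no length correction, -0.56 in the older counts, -1.38 on coding transcripts and 0.19 as a mean of log2. The mean of log2 weights Per2, Per3 and Nr1d1 as much as the abundant genes by construction; the causes of the other shifts were not tested. The ratio of PER to CRY became -0.26 in the older counts and -2.93 as a mean of log2, and that of Arntl to Nr1d1 2.77 with a pseudocount of 1. Leaving out single genes, chosen after seeing the data, gave -1.61 without Per1 and -1.04 without Cry1 for activators to PER and CRY, 3.73 without Nr1d2 for activators to REV-ERB, and -3.96 without Per1 for PER to CRY. Members called different between libraries numbered 7 with library totals (42.4% of all genes called) and 1 in the older counts (18.9%), and 1 to 5 when each library was left out in turn (14.7% to 36.8%). In pairs, 95 of 135 alternative values moved by less than 1 SD, 40 moved further and 0 changed sign. The 95 include every value that left out 1 of the 3 libraries. Such a value cannot move by 1 SD, so those values say nothing about stability on this measure. No paired analysis was possible because there is 1 group.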

Other observations

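The share of the newer expected counts that the older whole-number counts recovered varied among the clock genes. Over all genes it was 33.1%, and 9 of the 10 members lay above that. Nr1d2 had 27.4%, Clock 39.1%, Cry2 40.5%, Cry1 53.5%, Arntl 60.6%, Per3 62.2%, Dbp 63.2%, Nr1d1 65.4%, Per1 72.0% and Per2 73.6%. Ratios between members with unlike shares, such as Nr1d2 and Per1, therefore read differently in the 2 tables, and the cause was not tested.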
